A study of Rattus norvegicus with 16 samples.

Results

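Motile cilia and axoneme genes were followed in hippocampus and cortex from aged rats that ate control chow or chow with curcumin, a polyphenol of turmeric, for 6 or 12 weeks. The genes were chosen by name alone. They comprised every transcript cluster (the array's unit for 1 gene) that carried exactly 1 gene symbol beginning with Dnah, Dnai, Cfap, Rsph, Tekt or Drc, together with Hydin, Spag6, Spag16, Ccdc39, Ccdc40, Ak7 and Spef2. This rule found 48 genes among 15097 clusters with exactly 1 symbol and 27342 clusters in all, and no gene had more than 1 row. Foxj1 and Tmem212 were also sought and not found under those symbols, while Ccdc153 is an older name of Drc12, which was found. No measured value entered the rule.

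All rats were male Sprague-Dawley animals, 15 months old when the experiment began. They were therefore older at sampling, and by more in the 12-week groups. The 8 groups were formed by tissue, diet and duration, and each held 2 arrays of RNA from pools of 3 rats. Both tissues were taken from the same rats, so hippocampus and cortex groups of 1 diet and duration share animals. The hippocampus control groups, the hippocampus curcumin groups, the cortex control groups and the cortex curcumin groups were each sampled after 6 and after 12 weeks of feeding. Although the labels name the arrays biological replicates, the methods also speak of duplicate hybridisation. The p-values below rest on the spread between the 2 arrays of a group, pooled over all 8 groups. This spread may be partly technical. Values are log2 RMA intensities, for which array number limits the precision.

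Motile cilia beat by the sliding of outer microtubule doublets in a core called the axoneme. Axonemal dyneins on the doublets are the motors, and radial spokes, the central pair and the nexin-dynein regulatory complex control when and where they act. In the brain motile cilia are carried by the ependymal cells that line the ventricles, where they move cerebrospinal fluid. The choroid plexus epithelium borders the same space. Neurons and astrocytes commonly carry a single immotile primary cilium. RFX transcription factors, which bind the X-box motif, act upstream of many of these genes.

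The 48 genes comprised 7 dynein heavy chains, 5 dynein intermediate chains, 4 central pair genes, the adenylate kinase Ak7, 6 radial spoke genes, 6 genes of the Ccdc39/Ccdc40 ruler and the nexin-dynein regulatory complex, 12 other Cfap genes and 7 tektin genes. The RefSeq table for build GRCr8, whose promoters run from 250 bases before to 50 bases after a gene's start, held promoters for 42 of these genes. The X-box, searched by its name's consensus of paired RFX half-sites on both strands, was present in promoters of 7 of the 42 genes (16.7%). Of the 27457 genes with promoters in the table, 1.64% had it. The shorter GTTGCC, which can form part of an X-box, was present on either strand in 16 of 42 (38.1%) against 13.1%. TGTTTAC, a forkhead-type sequence, was present in 3 of 42 (7.14%) against 4.13%. A match describes the letters of the window and does not show that a factor binds there.

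Stretches are shown for genes whose values are described below (Hydin, Dnai2, Cfap141 and Tekt1) and for further dynein and tektin genes with an X-box (Dnah2, Dnai1 and Tekt2). They run 5′ to 3′ on the gene's strand. Capitals mark the X-box in the first 5, and GTTGCC or its reverse complement in the last 2. The table's start sites of Hydin and Dnah2 lie 84 and 476 bases inside the annotated gene, so only 30 bases are given for each. The stretches are chr19:55146436-55146465 for Hydin, chr10:54766050-54766079 (minus strand) for Dnah2, chr5:61525950-61526022 for Dnai1, chr10:100258930-100259002 for Dnai2, chr5:143907725-143907790 (minus strand) for Tekt2, chr2:177805161-177805226 for Cfap141 and chr10:57479125-57479190 (minus strand) for Tekt1.
Hydin: gtgagccaccctagcgGTTGCTGTGGCAAC
Dnah2: ggccccgaGTTGCCATGGCGACgcgtgcat
Dnai1: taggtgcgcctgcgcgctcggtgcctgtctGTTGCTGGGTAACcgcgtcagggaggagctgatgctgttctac
Dnai2: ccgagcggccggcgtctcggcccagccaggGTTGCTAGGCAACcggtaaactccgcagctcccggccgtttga
Tekt2: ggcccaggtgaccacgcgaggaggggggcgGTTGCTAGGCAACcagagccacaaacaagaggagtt
Cfap141: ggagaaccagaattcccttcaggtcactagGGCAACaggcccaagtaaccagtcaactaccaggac
Tekt1: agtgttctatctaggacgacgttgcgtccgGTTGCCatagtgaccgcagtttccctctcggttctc

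The mean log2 value of 11 of the 48 genes lay above the median cluster (6.397), and that of 5 genes (Cfap107, Cfap210, Cfap97d1, Dnah7 and Spag6) lay in the dimmest part of the table, below its lower quartile of 5.295. The genes that varied most over the 16 arrays were Rsph10b (SD 0.52), Dnah12 (0.36), Cfap300 (0.36), Hydin (0.33), Dnah11 (0.25), Cfap126 (0.24) and Ak7 (0.23). Those are log2 SDs, and they include differences between tissues, diets and durations as well as between replicates.

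**Figure D1:**
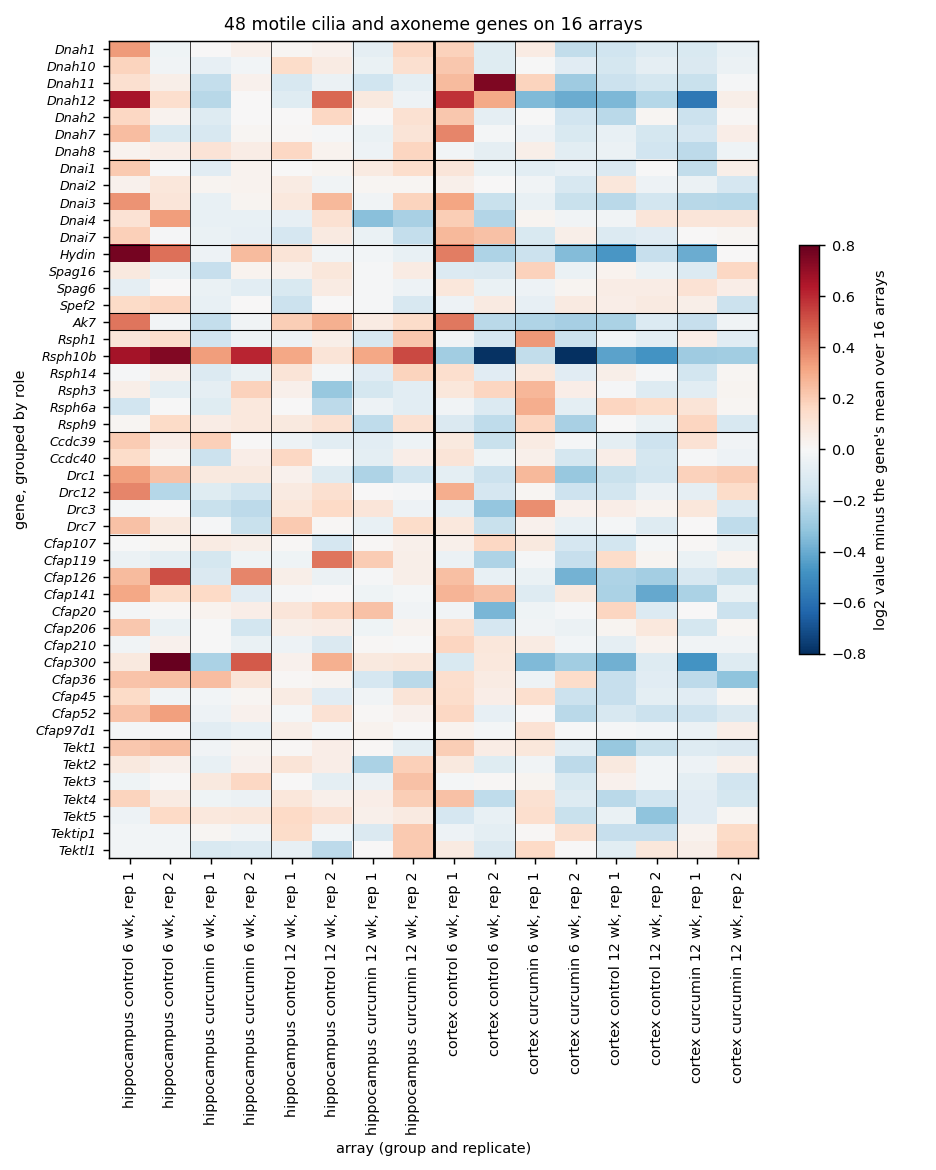
Each row is 1 of the 48 genes, grouped by role, and each column is 1 of the 16 arrays; colour gives the log2 value minus that gene's mean over all arrays, with colours saturated at 0.8 in either direction. Rsph10b is red on the hippocampus arrays and blue on the cortex arrays, while Dnah12 and Hydin are reddest on replicate 1 of the hippocampus control group at 6 weeks.

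Replicates of 1 group differed by amounts that bear on every comparison below. In the cortex control group at 6 weeks, 41 of 48 genes were higher on replicate 1, against 54.3% of all clusters, with a median replicate difference of 0.15 on the log2 scale. In the cortex curcumin group at 6 weeks the same count was 39 of 48 (54.5% of all clusters), including 7 of 7 dynein heavy chains, 6 of 6 radial spoke genes and 6 of 6 ruler and regulatory complex genes. In the hippocampus curcumin groups it was 16 of 48 at 6 weeks (50% of all clusters) and 14 of 48 at 12 weeks (41.2%), and in the cortex curcumin group at 12 weeks 19 of 48 (46.4%). In the control groups of hippocampus at 6 and 12 weeks and of cortex at 12 weeks, by contrast, 26, 24 and 25 of 48 genes were higher on replicate 1.

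The 2 hippocampus groups at 6 weeks differed between replicates in another way. The 21 choroid plexus genes on the array, among them the thyroid hormone carrier Ttr and the folate receptor Folr1, lay far higher on replicate 2 of both diets. Their median deviation from each gene's own mean was 1.41 on replicate 2 and 0.01 on replicate 1 of the control group, and 0.90 and -0.26 in the curcumin group. It lay between -0.26 and -0.12 on the remaining arrays. With these arrays, Cfap300, a factor in dynein arm assembly, read 6.54 and 7.40 on replicates 1 and 2 of the control group, and 6.20 and 6.95 in the curcumin group. Cfap126, a protein linked to basal body positioning, read 6.67 and 6.93, then 6.30 and 6.81. Both genes were thus higher on the arrays with high choroid plexus genes. Ak7 and Dnah12 were lower on replicate 2 of the control group (6.25 and 5.81 for Ak7, 6.53 and 6.00 for Dnah12) but higher on replicate 2 of the curcumin group (5.64 and 5.80 for Ak7, 5.65 and 5.87 for Dnah12). The genes named in the comparisons that use these arrays are also given without both of them.

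The 2 control arrays of cortex at 6 weeks, which enter each 6-week cortex comparison, also stood apart. The 8 olfactory bulb genes had a median deviation of 1.88 on replicate 2, against 0.05 on replicate 1 and -0.28 to 0.04 on the remaining 14 arrays. The 12 striatal projection neuron genes stood at 1.62 on replicate 1 and -0.16 on replicate 2, and at -0.49 to 0.96 on the remaining arrays, with the 0.96 on replicate 2 of the cortex control group at 12 weeks. Values without each of these arrays in turn are given below where they moved.

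**Figure D2:**
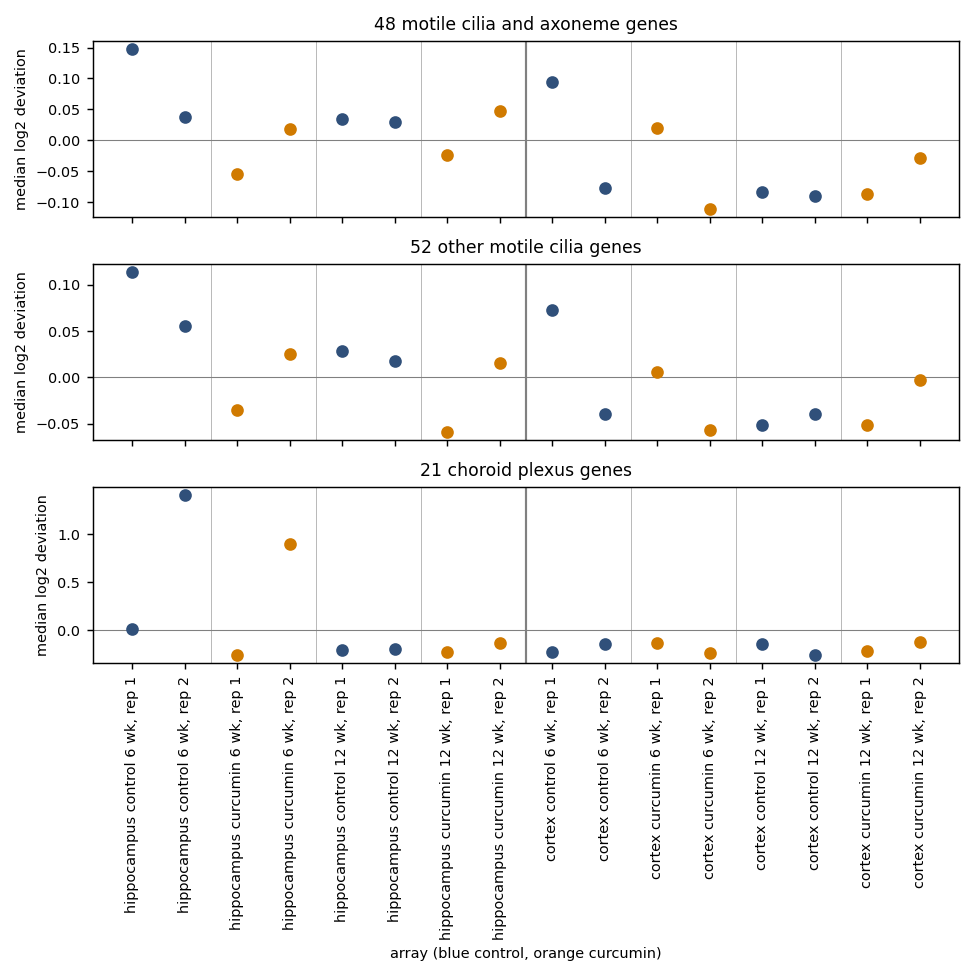
Points give, for each of the 16 arrays, the median log2 deviation of a gene list from its genes' means over all arrays, in blue for control and orange for curcumin chow; the vertical scales differ between panels. The 48 axoneme genes range from -0.11 to 0.15, whereas the 21 choroid plexus genes reach 1.41 and 0.90 on replicate 2 of the hippocampus groups at 6 weeks.

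To ask whether the genes differed between tissues, hippocampus was compared with cortex over the 4 diet and duration groups. Tissue identity was checked with 7 genes of dentate gyrus and hippocampus, of which 5 lay above 0 and 4 were significantly higher in hippocampus, with a median of 0.82 on the log2 scale, and the largest statistics belonged to C1ql2 (1.84) and Prox1 (1.57). Of the 3 cortex genes measured, Cux1 was lower in hippocampus (-0.47, limma adjusted p = 0.00122), but Fezf2 and Rasgrf2 were higher (0.49 and 0.30, limma adjusted p = 0.00564 and 0.0389), so the cortex list went partly against the label. Of the 48 axoneme genes, 2 were significantly higher in hippocampus (4.17%), against 6.05% of all clusters, and 0 were lower, against 3.63% (limma, adjusted p under 0.05 over all clusters). The share that passed was therefore no larger than the background. However, 37 of 48 differences lay above 0, against 50% of all clusters, and 14 genes had an unadjusted p under 0.05 in this direction (29.2%), against 12.2% of all clusters, with 0 in the other direction (9.12%). The median difference of the 48 genes was 0.06, and that of all clusters was -5.4e-06.

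Rsph10b, which encodes a radial spoke head protein and lies at chr12:15741097-15788887 (GRCr8), showed the clearest tissue difference. Its log2 value ran from 7.51 to 8.14 on the 8 hippocampus arrays, with a median of 7.83, and from 6.53 to 7.21 on the 8 cortex arrays, with a median of 7.05. The 2 tissues did not overlap, which was the case for 1.13% of all clusters in this direction. The difference was 0.90 ± 0.10 (SE), or 1.87-fold, with limma adjusted p = 2.44e-04. Without both arrays high in choroid plexus genes it was 0.86 (limma adjusted p = 0.00475). In a bulk extract, more cells of a type and more RNA per cell cannot be told apart.

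Cfap52, an axonemal protein inside the doublet microtubules, was the other gene that passed. It ran from 6.23 to 6.60 in hippocampus (median 6.31) and from 6.06 to 6.44 in cortex (median 6.15), so the tissues overlapped. The log2 difference was 0.17 ± 0.05 (SE; limma adjusted p = 0.0335). This call was lost without either array of the curcumin hippocampus groups, either array of the 12-week cortex groups, replicate 2 of either control hippocampus group or replicate 2 of either 6-week cortex group (limma adjusted p = 0.0528 to 0.0888), and without both arrays high in choroid plexus genes (0.191). It was also lost with trend and robust variances (0.0620). The number of genes called ranged from 1 without several of these arrays to 6 without replicate 1 of the cortex curcumin group at 6 weeks and 7 without replicate 1 of the cortex control group at 6 weeks.

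The next genes did not pass, and each overlapped between tissues. Hydin, a giant protein of the central pair, ran from 5.87 to 6.70 in hippocampus and from 5.46 to 6.34 in cortex (log2 difference 0.35, limma adjusted p = 0.0584). Cfap126 differed by 0.27 (limma adjusted p = 0.0626) and the heavy chain Dnah8 by 0.14 (limma adjusted p = 0.0673). Hydin and Cfap126 passed without clusters below the lower quartile of means (limma adjusted p = 0.0341 and 0.0407). They also passed after quantile normalization (0.0467 and 0.0458) and with trend and robust variances (0.0408 and 0.0464). Dnah8 passed after quantile normalization (0.0176). Each of these genes also passed on leaving out certain single arrays. Cfap300 differed by 0.43 on the log2 scale (limma adjusted p = 0.0752), with its highest arrays those rich in choroid plexus genes. Without both of those arrays the log2 differences were 0.35 for Hydin (limma adjusted p = 0.145), 0.17 for Cfap126 (0.232), 0.15 for Dnah8 (0.214) and 0.23 for Cfap300 (0.171), so those of Cfap126 and Cfap300 were smaller by over 1.5 times. The choroid plexus list had a median tissue difference of 0.42, with 17 of 21 genes above 0 and 1 called, and its part in the axoneme values was not tested beyond this refit. By role, 6 of 7 heavy chains, 10 of 12 Cfap genes, 6 of 7 tektins and 5 of 6 ruler and regulatory complex genes lay above 0, while central pair genes were split 2 and 2.

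**Figure D3:**
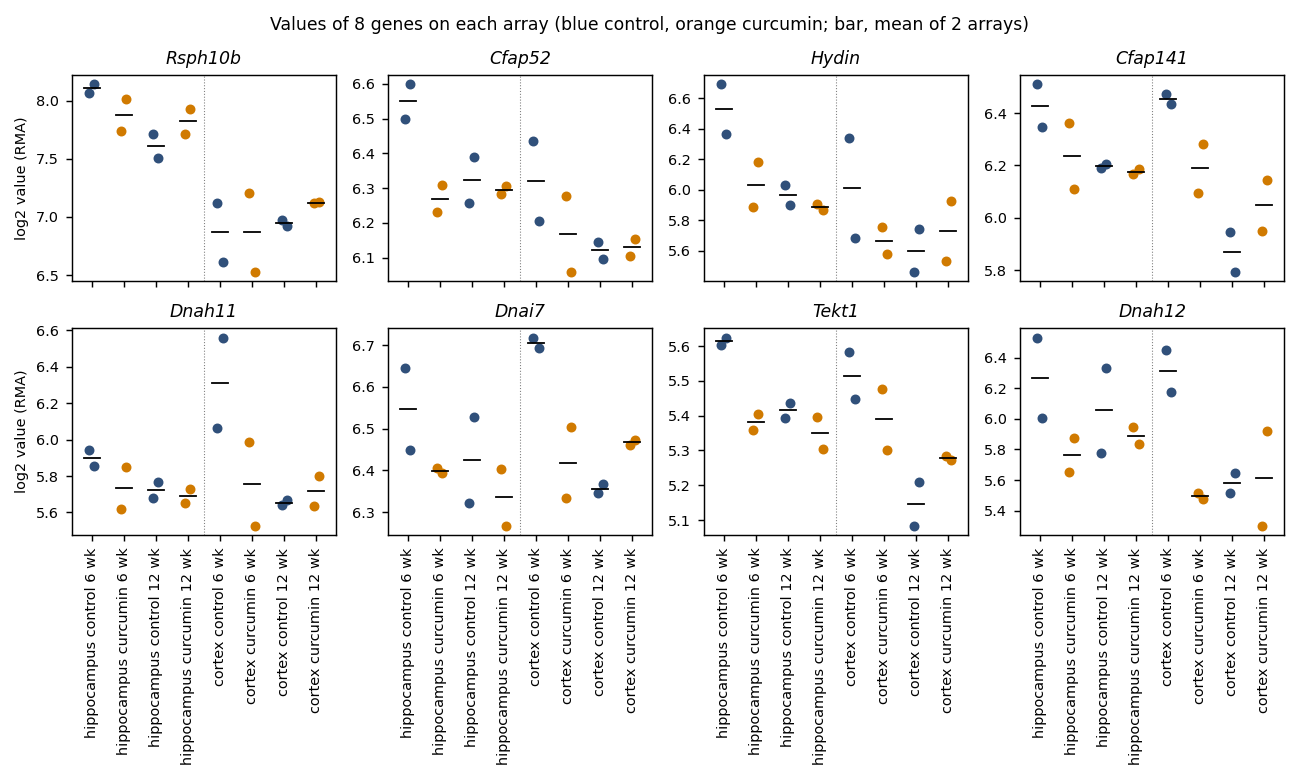
Each point is the log2 value of a gene on 1 array, in blue for control and orange for curcumin chow, and each bar is the mean of a group's 2 arrays; vertical scales differ between the 8 panels. Rsph10b separates hippocampus (left of the dotted line) from cortex, and Cfap141, Dnah11, Dnai7 and Tekt1 are lower at 12 than at 6 weeks in cortex on control chow.

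The comparison of 12 with 6 weeks on control chow sets different rats, sampled after different feeding periods without curcumin, against each other. Age, housing, cohort and array processing cannot be told apart in it. In cortex 4 of 48 genes were significantly lower at 12 weeks (8.33%), against 3.44% of all clusters, and 0 were higher, against 5.42%. At an unadjusted p under 0.05 the counts were 8 lower (11.2% of all clusters) and 0 higher (12.2%). In all, 32 of 48 differences lay below 0 (52.6% of all clusters), including 7 of 7 dynein heavy chains. The median was -0.09. These summaries rested on single arrays: without replicate 1 of the control group at 6 weeks 27 of 48 lay below 0 with a median of -0.00519, and without replicate 2 it was 40 of 48 and -0.15.

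Cfap141, a protein inside the doublet microtubules whose promoter stretch is shown above, read 6.47 and 6.44 at 6 weeks and 5.95 and 5.79 at 12 weeks. The groups did not overlap, as was the case for 28.6% of all clusters in this direction. It was lower at 12 weeks by 0.58 ± 0.10 (SE) on the log2 scale (limma adjusted p = 0.00743). Tekt1, a tektin filament protein of the doublet, read 5.58 and 5.45 at 6 weeks and 5.08 and 5.21 at 12 weeks. It was lower at 12 weeks by 0.37 ± 0.07 (SE; limma adjusted p = 0.0134), also without overlap.

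Dnah11, an outer dynein arm heavy chain, read 6.06 and 6.56 at 6 weeks and 5.64 and 5.67 at 12 weeks. The 6-week pair differed by more than most, yet both lay above the 12-week arrays. Dnah11 was lower at 12 weeks by 0.66 ± 0.16 (SE; limma adjusted p = 0.0323). Dnai7, which is associated with the dynein intermediate chains, read 6.72 and 6.69 at 6 weeks and 6.35 and 6.37 at 12 weeks. It was lower at 12 weeks by 0.35 ± 0.09 (SE; limma adjusted p = 0.0346). Dnah12, an inner arm heavy chain, had the largest difference of the 48 genes, from 6.45 and 6.18 to 5.51 and 5.64, but it did not pass (log2 difference -0.73, limma adjusted p = 0.0724).

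These 4 calls depended on single arrays. Cfap141 and Dnah11 passed without replicate 1 of the 6-week control group, and Cfap141 and Tekt1 without replicate 2. Only Cfap141 passed without replicate 1 of the 12-week control group, and only Tekt1 without replicate 2. On the 8 cortex arrays alone only Cfap141 passed. Dnai7 did not pass without either array of the hippocampus curcumin group at 6 weeks (limma adjusted p = 0.0538), after quantile normalization (0.0552) or with trend and robust variances (0.0614), and without both arrays high in choroid plexus genes 2 genes passed, Cfap141 and Tekt1. Genes of other cell types also differed between these cortex groups: the medians were -0.84 for 8 olfactory bulb genes, -0.52 for 9 oligodendrocyte genes and -0.38 for 12 striatal projection neuron genes, the olfactory bulb and striatal lists each standing high on 1 of the 2 control arrays at 6 weeks. Of 12 ependymal genes outside the axoneme, 8 lay below 0 with a median of -0.13. The part of these lists in the axoneme values was not tested.

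In hippocampus 0 genes passed in either direction, against 1.5% of all clusters called lower and 2.77% higher (limma). At an unadjusted p under 0.05, 9 of 48 were lower (7.39% of all clusters) and 0 higher (10.1%), and 32 of 48 differences lay below 0 (46.6% of all clusters). Hydin read 6.70 and 6.37 at 6 weeks and 6.03 and 5.90 at 12 weeks, a log2 difference of -0.57 (limma adjusted p = 0.172). The corresponding log2 differences were -0.22 for Cfap36, a protein that binds the small GTPase Arl3 (limma adjusted p = 0.153), -0.24 for the central pair protein Spef2 (0.172), -0.20 for Tekt1 (0.181) and -0.23 for Cfap52 (0.219). All 5 dynein intermediate chains lay below 0. The choroid plexus list had a median of -0.95 in this comparison. Without both arrays high in those genes, 36 of 48 axoneme genes lay below 0 and the median moved from -0.06 to -0.12. The log2 differences were then -0.73 for Hydin, -0.21 for Cfap36, -0.23 for Spef2, -0.19 for Tekt1 and -0.18 for Cfap52. Without replicate 1 of the 6-week control group, in contrast, 26 of 48 lay below 0 and the median was -0.02.

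**Figure D4:**
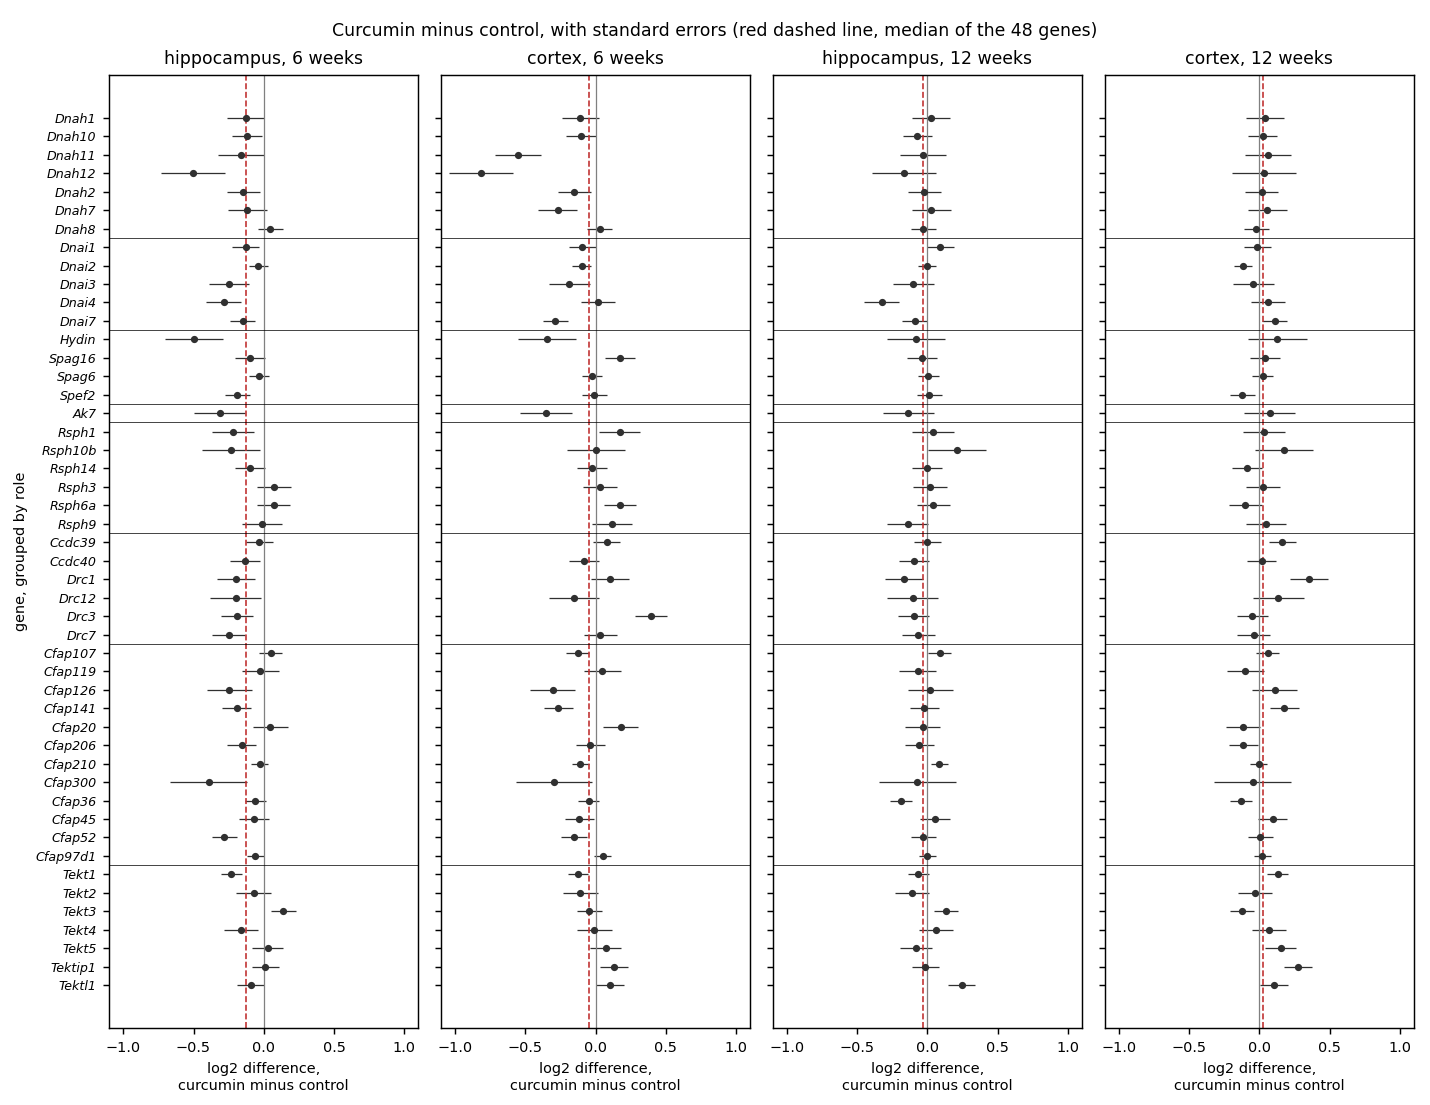
Points give each gene's log2 difference between curcumin and control chow with its standard error, 1 panel for each tissue and duration, with genes grouped by role; the red dashed line is the median of the 48 genes. In hippocampus at 6 weeks 40 of 48 points lie left of 0 with a median of -0.13, whereas the medians of the other panels lie between -0.05 and 0.03.

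Curcumin was compared with control chow in each tissue at each duration. No axoneme gene passed the threshold in any of these 4 comparisons. In hippocampus at 6 weeks, 0% of all clusters were called in either direction. Here 40 of 48 axoneme genes lay below 0, against 51.1% of all clusters, and in 22 of 48 both curcumin arrays lay below both control arrays, against 17.7%. At an unadjusted p under 0.05, 5 genes were lower (0.863% of all clusters) and 0 higher (1.17%). The median log2 difference was -0.13, and leaving out any 1 of the 4 arrays gave 36 to 40 genes below 0 and medians from -0.18 to -0.07.

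The genes with the largest moderated statistics in hippocampus at 6 weeks spanned several parts of the axoneme, and all had limma adjusted p = 0.9999. Hydin read 6.70 and 6.37 on control and 5.89 and 6.18 on curcumin chow, a log2 difference of -0.50 ± 0.21 (SE). Dnah12 read 6.53 and 6.00, then 5.65 and 5.87, a difference of -0.51 ± 0.23 (SE). Cfap52 read 6.50 and 6.60, then 6.23 and 6.31, a difference of -0.28 ± 0.09 (SE). In each of these the curcumin arrays lay below the control arrays. Tekt1 differed by -0.23 ± 0.07 (SE) and the intermediate chain Dnai4 by -0.29 ± 0.12 (SE), likewise without overlap. All 6 ruler and regulatory complex genes, 5 of 5 intermediate chains, 4 of 4 central pair genes, 6 of 7 heavy chains and 10 of 12 Cfap genes lay below 0, whereas radial spoke genes (4 of 6) and tektins (4 of 7) were more evenly split. Ak7, an adenylate kinase of the axoneme, differed by -0.31.

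The choroid plexus list differed in the same comparison, with a median of -0.40 and 18 of 21 genes below 0 (0 called). Without both arrays high in those genes, 37 of 48 axoneme genes lay below 0 and the median was -0.21. The log2 differences were then -0.81 for Hydin, -0.88 for Dnah12, -0.62 for Ak7, -0.27 for Cfap52, -0.25 for Tekt1 and -0.18 ± 0.18 (SE) for Dnai4, so that of Dnai4 was smaller by over 1.5 times and those of Hydin, Dnah12 and Ak7 were larger, each resting on 1 array per group, with the lone arrays assumed to vary like those of the other groups. Of the 12 ependymal genes outside the axoneme, 7 lay below 0 in this comparison with all arrays, with a median of -0.06.

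In cortex at 6 weeks 0 genes were called, against 0.0987% of all clusters higher and 0.00731% lower (limma). At an unadjusted p under 0.05, 4 genes were lower (5.11% of all clusters) and 1 higher (6.94%), and 30 of 48 lay below 0 (49.4%), 10 of them without overlap of the arrays (17.4%). Dnah12 read 6.45 and 6.18 on control and 5.52 and 5.48 on curcumin chow, a log2 difference of -0.81 ± 0.23 (SE; limma adjusted p = 0.183). Dnah11 read 6.06 and 6.56, then 5.99 and 5.53, a difference of -0.55 ± 0.16 (SE; limma adjusted p = 0.206). Neither pair of groups overlapped. Drc3, a regulatory complex subunit, went the other way, from 7.62 and 7.38 to 8.06 and 7.73, a difference of 0.40 ± 0.11 (SE; limma adjusted p = 0.188).

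Dnai7 differed by -0.29 (limma adjusted p = 0.222) and Cfap141 by -0.27 (limma adjusted p = 0.321) in cortex at 6 weeks. Here 6 of 7 heavy chains lay below 0, but 5 of 6 radial spoke genes lay above 0. Without replicate 1 of the control group 23 of 48 genes lay below 0, the median turned from -0.05 to 0.03, and Dnah11 passed (-0.80, limma adjusted p = 0.0286). Without replicate 1 of the curcumin group 39 of 48 lay below 0, with a median of -0.14, and without replicate 2 of the curcumin group the median was -0.01. Without replicate 2 of the control group it was -0.15. Other lists differed too, with medians of -1.15 for olfactory bulb, -0.80 for oligodendrocyte, -0.50 for striatal projection neuron and -0.16 for ependymal genes (9 of 12 below 0), and their part was not tested. The 6-week control arrays of each tissue serve both the curcumin comparison and the comparison of durations, so the values for Dnah11, Dnah12, Dnai7, Cfap141 and Hydin in the 2 comparisons are not independent.

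In hippocampus at 12 weeks 0 genes were called, against 0.00366% of all clusters higher and 0% lower (limma), and at an unadjusted p under 0.05 there were 1 higher (2.22% of all clusters) and 2 lower (2.88%). Dnai4 read 7.11 and 7.29 on control and 6.84 and 6.91 on curcumin chow, a log2 difference of -0.33 ± 0.12 (SE; limma adjusted p = 0.921). Tektl1, a tektin-like protein, read 5.45 and 5.31, then 5.52 and 5.72, a difference of 0.24 (limma adjusted p = 0.939). Cfap36 differed by -0.19, Tekt3 by 0.13 and Cfap210 by 0.08 on the log2 scale. The median was -0.03, and 31 of 48 genes lay below 0 (50.2% of all clusters). Without replicate 1 of the curcumin group 22 of 48 lay below 0 and the median was 0.00422. Of the ependymal genes 7 of 12 lay above 0, with a median of 0.05.

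In cortex at 12 weeks 0 genes were called, against 1.64% of all clusters higher and 1.59% lower (limma), and at an unadjusted p under 0.05 there were 2 higher (7.63%) and 0 lower (7.43%). Drc1, which anchors the regulatory complex, read 6.59 and 6.62 on control and 6.95 and 6.97 on curcumin chow, a log2 difference of 0.36 ± 0.13 (SE; limma adjusted p = 0.217). The groups did not overlap, as was the case for 22.3% of all clusters in this direction. Without either array of the cortex curcumin group at 6 weeks, where Drc1 read 7.03 and 6.47, it passed (limma adjusted p = 0.0212). Tektip1, a tektin bundle protein, read 5.92 on both control arrays and 6.14 and 6.26 on curcumin chow, a difference of 0.28 ± 0.10 (SE; limma adjusted p = 0.183). Tekt1 differed by 0.13, Cfap141 by 0.18 and Dnai2 by -0.12. The median was 0.03, and 31 of 48 genes lay above 0 (50.2% of all clusters). Without replicate 2 of the curcumin group 22 of 48 lay above 0 and the median was -0.01. Other lists differed the other way: 9 of 12 ependymal genes lay below 0 (median -0.17), of which Cd24 (-0.54, limma adjusted p = 0.00769) and Rarres2 (-0.29, limma adjusted p = 0.0471) were significantly lower, and 7 of 7 astrocyte and 12 of 12 striatal projection neuron genes lay below 0 (medians -0.23 and -0.25). Aqp4 stands in both the ependymal and the astrocyte list, so these lists are not separate. The part of the other lists was not tested.

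The remaining genes most often used to describe motile cilia are given by their log2 differences between diets. Spag6, a central pair protein, differed between diets by -0.03 in hippocampus and in cortex at 6 weeks and by 0.01 and 0.02 at 12 weeks. Ccdc39, part of the molecular ruler that spaces the spokes, differed by -0.03 and 0.08 at 6 weeks and by 0.00 and 0.16 at 12 weeks in hippocampus and cortex. Its partner Ccdc40 differed by -0.14 and -0.08, then -0.09 and 0.02. The intermediate chain Dnai1 differed by -0.13 and -0.10, then 0.09 and -0.01. Rsph1, a spoke head protein, differed by -0.22 and 0.17, then 0.04 and 0.03. Spag16, a central pair protein, differed by -0.10 and 0.18, then -0.04 and 0.04. Tekt4 differed by -0.16 and -0.01, then 0.06 and 0.07, and Cfap206, a doublet-associated adaptor, by -0.16 and -0.04, then -0.06 and -0.11. None of these passed. Without both arrays high in choroid plexus genes the hippocampus values at 6 weeks were 0.02 for Spag6, -0.01 for Ccdc39, -0.31 for Ccdc40, -0.29 for Dnai1, -0.25 for Rsph1, -0.26 for Spag16, -0.22 for Tekt4 and -0.22 for Cfap206, with 1 array per group.

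Whether the curcumin difference itself changed with duration or tissue was tested by interaction terms, and 0 of 48 genes passed in each of the 4 (limma). Against these zeros, 0.446% of all clusters were called higher and 1.02% lower for the change with duration in cortex, and 0.117% and 0.0731% for cortex minus hippocampus at 12 weeks, with 0% in both directions for the other interactions. At an unadjusted p under 0.05 there were 5 higher (6.62% of all clusters) and 1 lower (8.09%) for duration in cortex, 1 higher (1.4%) and 0 lower (2.03%) for duration in hippocampus, 1 higher (3.73%) and 0 lower (1.75%) for cortex minus hippocampus at 6 weeks, and 2 higher (5.67%) and 0 lower (4.9%) at 12 weeks.

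The interaction terms with the largest statistics are given as log2 differences of differences. For duration in cortex they were 0.40 for Dnai7 (limma adjusted p = 0.149), 0.44 for Cfap141 (0.165), -0.44 for Drc3 (0.206), 0.62 for Dnah11 (0.233) and 0.85 for Dnah12 (0.238). Without replicate 1 of the cortex control group at 6 weeks Dnah11 passed (0.86, limma adjusted p = 0.0499). For duration in hippocampus they were 0.34 for Tektl1, 0.25 for Cfap52, 0.22 for Dnai1, 0.20 for Spef2 and 0.17 for Tekt1, each with limma adjusted p = 0.99996. Without both arrays high in choroid plexus genes these became 0.35, 0.24, 0.39, 0.23 and 0.18, and the median of the 48 genes moved from 0.09 to 0.17.

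For cortex minus hippocampus at 6 weeks the terms were 0.58 for Drc3 (limma adjusted p = 0.540), 0.39 for Rsph1 (0.960), 0.27 for Spag16 (0.963), 0.30 for Dnai4 (0.987) and 0.28 for Drc7 (0.991). Without both arrays high in choroid plexus genes they were 0.56, 0.43, 0.44, 0.19 and 0.28, and the median moved from 0.06 to 0.12. At 12 weeks they were 0.52 for Drc1 (limma adjusted p = 0.323), 0.39 for Dnai4 (0.465), 0.29 for Tektip1 (0.506), -0.26 for Tekt3 (0.521) and 0.20 for Tekt1 (0.587). Thus a difference in the curcumin response between durations or between tissues was not detected for any of these genes, which does not show that the responses were equal. Hydin, Ak7, Dnah11 (as Dnahc11) and Dnah12 (as Bm259) also stand in gene tables that the study chose on these same arrays, so their values are not independent evidence. The study lists decreases on curcumin chow for Hydin, in cortex at 6 weeks and in hippocampus at 12 weeks. It also lists them for Ak7 in hippocampus and for Dnah12 in both tissues, at 6 weeks. All were larger than the differences found here, of which only that of Dnah12 in cortex reached the study's 1.5-fold rule. Hydin differed here by -0.34 in cortex at 6 weeks and by -0.08 in hippocampus at 12 weeks. The study's entries for Hydin and Dnah12 bear other sequence identifiers than the clusters used here, whereas that for Ak7 bears the same one. Ak7 differed here by -0.31 in hippocampus at 6 weeks. Why the study's values are larger was not tested.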

How the data were processed

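Total RNA from pooled tissue was hybridised to Affymetrix whole-transcript arrays. The authors summarised the scans by RMA in Affymetrix Expression Console, and the deposited values are log2 intensities per transcript cluster, used here as deposited; array medians ran from 6.35 to 6.44. The study names an exon array, whereas the platform annotation that supplied gene symbols is that of the rat gene array, and this was not settled. RMA pulls arrays to a common distribution, so differences are relative to all clusters, and dim clusters are compressed. A group-means model was fitted to all 27342 clusters and 16 arrays with limma 3.58.1 in R 4.3.3 (8 residual and 3.12 prior degrees of freedom). Benjamini-Hochberg adjustment ran over all clusters and a gene was called at adjusted p under 0.05. In each comparison the text names every gene called or, where fewer than 5 passed, the 5 with the largest absolute moderated t, and a fixed set of well-known axoneme genes; others were named for their values. The genes and lists were chosen with earlier results of these data known. The fit was tested on simulated data. Replicate numbers did not pair samples across all groups. Over 28 pairs of groups the correlation of replicate differences ran from -0.43 to 0.49 and exceeded 0.1 in 7. Among the 4 pairs of hippocampus and cortex groups of 1 diet and duration, which share rats, it ran from -0.15 to 0.16 and exceeded 0.1 in 3; whether equal numbers mark the same pool of rats is not given in the sources used here. Alternatives were a dim-cluster filter, quantile normalization, leaving out arrays, single-tissue fits, trend and robust variances, array weights, replicate and random blocks, and the study's 1.5-fold rule. Promoters came from RefSeq, with no promoter used for Rsph1, Spag16, Tekt5, Cfap52, Dnai4 and Cfap107.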

Additional observations from a re-analysis of the deposited data

How the results depend on the processing

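The number of genes called for hippocampus minus cortex was 2 as reported, 5 without clusters below the lower quartile of means, 7 after quantile normalization, 4 with trend and robust variances, and 1 by the 1.5-fold rule; leaving out 1 array gave 1 to 7. For 12 minus 6 weeks on control chow in cortex it was 4 as reported, 1 on the 8 cortex arrays alone and 2 by the 1.5-fold rule, with 1 to 5 on leaving out 1 array. In hippocampus it was 0, with 1 after quantile normalization and 0 to 1 on leaving out 1 array (1 without either cortex curcumin array at 6 weeks or replicate 1 of the hippocampus control group at 12 weeks). The curcumin comparison in cortex gave 1 gene at 6 weeks by the 1.5-fold rule (Dnah12), and 0 to 1 on leaving out 1 array at either duration; its change with duration gave 2 by the 1.5-fold rule and 0 to 1 on leaving out 1 array (1 without replicate 1 of either cortex group at 6 weeks). Leaving out both arrays high in choroid plexus genes, chosen after seeing the data, gave 1 gene for the tissues and 2 for 12 minus 6 weeks in cortex. The curcumin difference of Tekt3 in hippocampus at 12 weeks reversed to -0.0114 without replicate 2 of the curcumin group, and ranged up to 0.27 on leaving out 1 array. The replicate number was also used as a block, although it is not given whether equal numbers mark the same pool. With it, 3 genes were called between tissues and 4 for 12 minus 6 weeks in cortex, and no other count changed. A random block joining the arrays of both tissues with the same diet, duration and replicate number (consensus correlation 0.039) changed no count. The medians of the 48 genes were judged against the SD between replicates of that median on an array (0.067). They moved by more without both arrays high in choroid plexus genes for curcumin in hippocampus at 6 weeks (to -0.21) and its change with duration (to 0.17). On leaving out 1 array the median ran from -0.15 to 0.0331 for curcumin in cortex at 6 weeks, from -0.15 to -0.00519 for 12 minus 6 weeks in cortex, from -0.0143 to 0.16 for the change with duration in cortex, and from -0.0383 to 0.14 at 6 weeks and 0.0118 to 0.11 at 12 weeks for cortex minus hippocampus. It also changed sign for curcumin at 12 weeks in hippocampus and in cortex. Averaging several rows of a gene was not run, since no gene had more than 1. The causes of these changes were not tested. There were 2 arrays per group, and 43 of 48 genes lay above the lower quartile of means.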

Other observations

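Among 52 motile cilia genes outside the naming rule (dynein assembly factors, docking complex subunits, regulators and other axoneme genes), 3 were significantly higher in hippocampus than in cortex (5.77%, against 6.05% of all clusters) and 0 lower (3.63% of all clusters). They were Rfx3, an RFX transcription factor (log2 difference 0.50, limma adjusted p = 0.00386), Spata18 (0.46, limma adjusted p = 0.00489) and the dynein assembly factor Spag1 (0.25, limma adjusted p = 0.0211). At 12 against 6 weeks on control chow in cortex, 2 were lower (3.85%, against 3.44% of all clusters), the dynein arm assembly factor Zmynd10 (-0.48, limma adjusted p = 0.00774) and Mlf1 (-0.21, limma adjusted p = 0.0449). Zmynd10 was also higher on curcumin than control chow in cortex at 12 weeks (0.56, limma adjusted p = 0.00764). It was the 1 gene of these 52 called in a curcumin comparison, against 1.64% of all clusters called higher in that comparison. Its change with duration in cortex passed (0.76, limma adjusted p = 0.0210), against 0.446% of all clusters called higher. The 12-week control arrays of cortex enter each of these values of Zmynd10. In hippocampus at 6 weeks 42 of these 52 genes lay below 0 for curcumin minus control, against 51.1% of all clusters, with a median of -0.08 and 0 called. In the same comparison 20 of 36 primary cilium and intraflagellar transport genes lay below 0, with a median of -0.01. The 52 genes were read on the same arrays as the axoneme genes, so their count is not independent of theirs. Replicates of 1 diet also differed in them. In hippocampus at 6 weeks 30 of 52 were higher on replicate 1 of the control group and 12 of 52 in the curcumin group (54.3% and 50% of all clusters). In the cortex control group at 6 weeks 42 of 52 were higher on replicate 1 (54.3%).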
